A study of Mus musculus with 8 samples.

Results

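Noradrenaline and acetylcholine set the rate and force of the heartbeat. Here 9 genes of that signalling system were followed in postnatal heart muscle of control and Carm1 KO groups. In KO the messenger RNA of Carm1 was 1.78-fold lower at 1w and 2.25-fold lower at 3w. It was thus reduced, not absent. The 9 genes were chosen by name from the 54752 gene IDs of the count table: the adrenergic receptors Adrb1, Adra1a and Adra1b, the muscarinic receptor Chrm2, the adenosine receptor Adora1, the adenylyl cyclases Adcy5 and Adcy6, the receptor kinase Grk5 and the protein kinase A subunit Prkar1a. All 9 passed the filter on low counts, which kept 14665 genes. Between 1w and 3w, 7 of the 9 were called higher and Prkar1a lower, in control and in KO, where 70.8% and 67.9% of all genes were called. In KO Chrm2, Adcy5 and Adcy6 were called lower and Grk5 higher at both ages, where 20.7% of all genes were called in the same direction at both, and Prkar1a was lower at 1w and higher at 3w. These calls use TMM scaling, defined below. With library totals in its place, Adrb1, Adra1b and Adcy5 lay below 0 with age in control, Adcy6 at 1w was no longer called in KO (-0.02 on the log2 scale) and Adcy5 at 3w lay above 0 (0.03).

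The study measured messenger RNA of mouse cardiomyocytes that a Langendorff perfusion system had released from the heart, and it addressed the role of Carm1, an arginine methyltransferase, in postnatal heart muscle. All 4 groups carried the same genotype, Carm1fl/fl, and differed in virus and age: control at 1w and at 3w received AAV-GFP, KO at 1w and at 3w received AAV-CRE, with 2 libraries each. The protocol names the AAV9 serotype and mosaic hearts in which only some cells were infected, names no promoter for the Cre and no sorting step, and Cre was not given to mice lacking the floxed alleles in any group, so loss of Carm1 and an effect of the Cre protein cannot be told apart. The labels give injection on postnatal day 1 or 2 for the 1w libraries of both viruses. For the 3w libraries they give day 3 or 4, and the meaning of these days is uncertain. A difference between the ages, or a change of the KO difference between them, cannot be told apart from one that goes with the labelled day. Whether the 2 libraries of a group are separate animals is not stated, so each p-value speaks only to the spread among the sequenced libraries, and that spread may be technical.

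In a cardiomyocyte, noradrenaline acts on the beta-1 receptor (Adrb1), which activates adenylyl cyclase through the stimulatory G protein. The cyclase makes cAMP, which frees the catalytic subunits of protein kinase A from their regulatory subunits, and the kinase then phosphorylates calcium channels and contractile proteins. Acetylcholine at the M2 receptor (Chrm2) and adenosine at the A1 receptor (Adora1) act through inhibitory G proteins, which lower cAMP and open a potassium channel built from the products of Kcnj3 and Kcnj5. The alpha-1 receptors (Adra1a, Adra1b) act through the Gq protein and phospholipase C instead, and receptor kinases such as Grk5 switch occupied receptors off.

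Total counts per library ran from 20818285 to 53671626, and 40.7 to 47.8% of them came from mitochondrial genes. Carm1 checked the labels: it read 39.1 to 40.5 CPM in the 4 control libraries and 17.3 to 22.4 CPM in the 4 KO libraries. In KO it stood at 22.2 and 22.4 CPM at 1w (1.78-fold lower) and 17.3 and 17.8 CPM at 3w (2.25-fold lower). The change of its KO difference between the ages was -0.34 ± 0.082 on the log2 scale (edgeR adjusted p = 0.00066). CPM here are counts per 1000000 of library size, with each library size scaled by TMM, the trimmed mean of M-values. The ventricular muscle markers fixed as a check summed to 37209 to 80249 CPM and 8 of the 10 were detected, while Pln and Actc1 were listed at 0 in all 8 libraries. Markers of other cells were also present and moved with the groups. At 1w the 10 fibroblast markers summed to 1260 and 1262 CPM in the controls against 2322 and 2348 CPM in KO, and at 3w to 283.3 and 283.5 CPM in the controls against 632 and 644 CPM in KO, with Tcf21 listed at 0 throughout. The 10 smooth muscle and pericyte markers summed to 1122 to 1853 CPM in control and 2039 to 2336 CPM in KO, but at 1w 5 were called higher and Rgs5, Kcnj8 and Abcc9 lower, and the sum followed Acta2 (1106 against 1727 CPM). The 10 macrophage markers summed to 44.1 to 85.2 CPM in control and 120.4 to 143.8 CPM in KO, with Cd163 lower in KO at 3w (8.48 against 5.94 CPM). The 10 endothelial markers summed to 1150 and 1153 CPM in the 1w controls, 1390 and 1385 CPM in the 1w KO libraries, 462 and 455 CPM in the 3w controls and 495 and 518 CPM in the 3w KO libraries, with 9 called higher in KO at 1w and, at 3w, 7 higher and 2 lower. The 8 epicardial markers summed to 35.5 and 36.2 CPM in the 1w controls, 63.5 and 61.0 CPM in the 1w KO libraries, 25.9 and 25.1 CPM in the 3w controls and 16.0 and 15.3 CPM in the 3w KO libraries. The 8 lymphocyte markers summed to 1.80 and 1.91 CPM in the 1w controls, 6.43 and 7.25 CPM in the 1w KO libraries and 0.847 to 1.03 CPM at 3w, and the 6 adipocyte markers to 0 to 0.247 CPM. Autonomic neuron and Schwann cell markers summed to 19.2 to 32.8 CPM, with 2 to 5 of the 10 at 0 in a library. The 13 atrial and conduction markers are given beside the inhibitory receptors. In RNA from a mix of cells, fewer cells of a type and less RNA per cell cannot be told apart, and the part these other cells had in the results below was not tested.

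Counts of 4 Y-linked genes summed to 4814 and 6765 in the 3w controls and 4282 and 5025 in the 1w KO libraries, against 0 to 3 in each of the other 4 libraries. A KO difference at 1w alone or at 3w alone, and its change between the ages, therefore cannot be told apart from one that goes with Y-linked transcripts, and neither can an age difference within control or within KO. The mean of the KO differences at both ages holds as many libraries with as without them on each side. So does the mean of the age differences over both genotypes, but in it the labelled injection day still goes with age.

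Chrm2 and Adora1 rose together with age and Prkar1a was the one member called lower, and the stretches before their start sites are printed here for that reason. RefSeq's promoter table (GRCm38.p6) held 7 of the 9 genes, and Adra1a and Adcy6 are named only. The windows run 5′ to 3′ on the gene's own strand and hold the 250 bases before the start site. Chrm2 lies at chr6:36387834-36388083, plus strand. Adora1 lies at chr1:134235458-134235707, minus strand, before the one of its 2 listed starts that is nearest to its annotated 5′ end. Prkar1a lies at chr11:109649113-109649362, plus strand, before the one of its 6 listed starts that is nearest to its annotated 5′ end. Capitals mark matches to any of the searched motifs.
Chrm2: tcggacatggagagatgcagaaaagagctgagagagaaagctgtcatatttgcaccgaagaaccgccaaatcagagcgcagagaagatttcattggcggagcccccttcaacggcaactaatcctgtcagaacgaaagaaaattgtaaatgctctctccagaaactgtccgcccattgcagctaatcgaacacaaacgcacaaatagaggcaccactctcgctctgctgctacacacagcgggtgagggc
Adora1: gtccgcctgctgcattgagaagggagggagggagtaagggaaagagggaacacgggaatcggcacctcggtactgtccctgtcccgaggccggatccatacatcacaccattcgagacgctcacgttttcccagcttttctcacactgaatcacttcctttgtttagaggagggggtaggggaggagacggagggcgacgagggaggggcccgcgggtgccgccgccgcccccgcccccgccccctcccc
Prkar1a: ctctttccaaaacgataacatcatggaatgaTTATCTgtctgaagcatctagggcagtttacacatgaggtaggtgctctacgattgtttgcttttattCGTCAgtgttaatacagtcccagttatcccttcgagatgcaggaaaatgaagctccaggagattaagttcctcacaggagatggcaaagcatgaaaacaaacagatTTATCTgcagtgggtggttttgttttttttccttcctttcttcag
The search covered both strands of the 250 bases before and the 50 bases after each start for TGACGTCA (the full cAMP response element), TGACG (its core, which lies inside the full element), CACGTG (an E-box), TATAAA (the TATA box) and AGATAA (the GATA motif). Of 32817 promoters of that length, 1.79% held the full element, 20.8% its core, 7.15% the E-box, 13.6% the TATA box and 11.2% the GATA motif. Prkar1a held the core at -151 and the GATA motif at -219 and at -45, all read on the opposite strand, where -1 is the base just before the start. Adrb1 held the core at -90, and no match lay in the windows of Adra1b, Adcy5, Grk5, Chrm2 and Adora1. Adra1b also has 2 listed starts, and where a gene had several only the one nearest its annotated 5′ end was searched. GC content of the 300 bases was 52.7% at Chrm2, 66.0% at Adora1 and 43.3% at Prkar1a.

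Levels can be compared between genes only per length, here as CPM per kb of annotated exon. On that scale Prkar1a was highest in every group, at 158 ± 4.66 (SD, n = 2) in the 1w controls, 81.8 ± 1.67 in the 3w controls, 118 ± 1.51 in the 1w KO libraries and 91.1 ± 0.124 in the 3w KO libraries. Adcy6 came next in all 4 groups, at 17.4 ± 0.296 in control at 1w, where Adcy5 lay close at 16.8 ± 0.234. The order below these differed with age. At 1w it ran Adcy5, Adra1b, Chrm2, Adrb1, Adora1, Grk5, Adra1a in both genotypes, with Grk5 at 0.292 ± 0.0090 and Adra1a at 0.139 ± 0.034 in control. At 3w Chrm2 stood above Adcy5, Adora1 above Adrb1, and Adra1a above Grk5. Chrm2 and Adcy5 at 3w were 27.3 ± 0.463 and 22.6 ± 0.487 in control and 20.96 ± 0.688 and 19.4 ± 0.530 in KO. In no group did the libraries of neighbours in the order overlap, but the Adcy6 and Adcy5 libraries of control at 1w were only 17.2 and 17.6 against 16.6 and 16.9. Scaled to the longest transcript instead, the order was the same in each group.

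**Figure D1:**
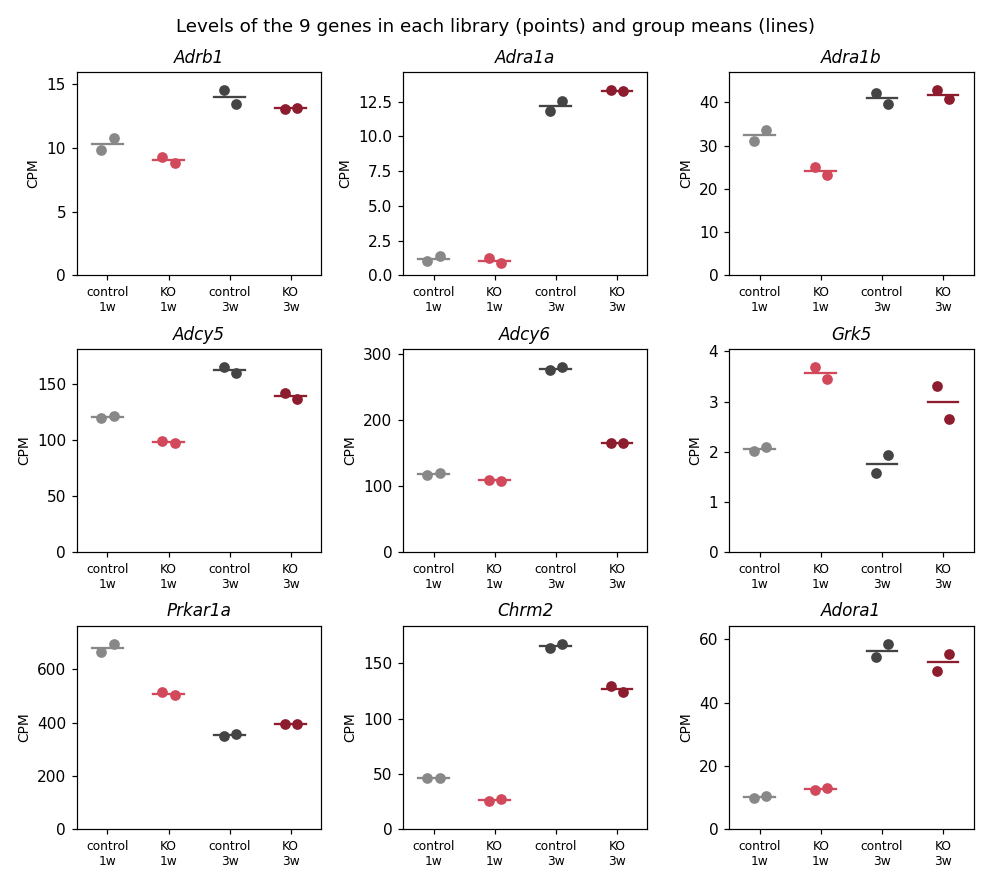
Level of each of the 9 genes in each library, in CPM on axes that start at 0. Points are the 2 libraries of a group and lines their mean. Adra1a, Chrm2 and Adora1 stand far higher at 3w, Prkar1a is highest in control at 1w (667 and 696 CPM), and Grk5 is higher in the KO libraries at both ages.

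The receptors were read first. Adrb1 (ENSMUSG00000035283, chromosome 19, 56722199 to 56733113, plus strand, as all positions here in GRCm38 with GENCODE M21) is the main beta receptor of heart muscle. It read 9.82 and 10.8 CPM in the 1w controls, 14.5 and 13.4 CPM in the 3w controls, 9.30 and 8.79 CPM in the 1w KO libraries and 13.1 and 13.1 CPM in the 3w KO libraries. The 4 libraries at 3w lay above the 4 at 1w, and within each age the KO libraries lay just below the control libraries. With age Adrb1 rose by a log2 fold change of 0.44 ± 0.085 (SE) in control (edgeR adjusted p = 7.4e-06) and 0.53 ± 0.086 in KO (edgeR adjusted p = 1.9e-07), but with library totals in place of TMM the control value was -0.14. The KO differences of -0.19 ± 0.089 at 1w (95% interval -0.37 to -0.02, edgeR adjusted p = 0.070) and -0.10 ± 0.082 at 3w (-0.26 to 0.06, edgeR adjusted p = 0.32) were not called. Their mean over both ages, -0.15 ± 0.061, just passed (edgeR adjusted p = 0.035). That call was lost without replicate 2 of control at 1w (edgeR adjusted p = 0.21), replicate 1 of control at 3w (0.11) or replicate 2 of KO at 1w (0.12), and with DESeq2 (adjusted p = 0.16).

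Adra1a (ENSMUSG00000045875, chromosome 14, 66635251 to 66771168, plus strand) and Adra1b (ENSMUSG00000050541, chromosome 11, 43774606 to 43901210, minus strand) encode the alpha-1A and alpha-1B receptors. Adra1a had 24 and 52 counts (1.01 and 1.42 CPM) in the 1w controls and 55 and 33 counts (1.24 and 0.873 CPM) in the 1w KO libraries. The 3w controls read 11.8 and 12.5 CPM and the 3w KO libraries 13.3 and 13.2 CPM. Every library at 3w was thus far above every library at 1w, and at 1w the genotypes overlapped. The rise was 9.64-fold in control (log2 3.27 ± 0.14, edgeR adjusted p = 4.5e-30) and 12.4-fold in KO (log2 3.63 ± 0.14, edgeR adjusted p = 2.4e-33), the largest among the 9 genes. KO differences of Adra1a were not called at 1w (-0.23, 95% interval -0.69 to 0.23) or at 3w (0.13, -0.05 to 0.31), where library totals in place of TMM gave a called 0.38.

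Adra1b showed a smaller rise from a higher start. It read 31.1 and 33.7 CPM in the 1w controls, 42.2 and 39.6 CPM in the 3w controls, 25.05 and 23.3 CPM in the 1w KO libraries and 42.8 and 40.7 CPM in the 3w KO libraries. The KO libraries were the lowest at 1w and overlapped with control at 3w. KO differed from control by -0.43 ± 0.058 at 1w (edgeR adjusted p = 6.4e-09) and by 0.02 ± 0.053 at 3w (95% interval -0.08 to 0.13, edgeR adjusted p = 0.73), and the change between the ages was itself called (0.45 ± 0.079, edgeR adjusted p = 3.3e-06). With age Adra1b rose by 0.33 ± 0.055 in control and 0.79 ± 0.056 in KO, and with library totals in place of TMM these became -0.24 and 0.36. On that scale the 3w KO difference was called at 0.27, and the mean KO difference over both ages went from a called -0.20 to -0.03 (edgeR adjusted p = 0.58). Per kb of exon, Adra1b in control was 70.5 ± 13.1 (SD, n = 2) times Adra1a at 1w and 8.68 ± 0.755 times at 3w, and in KO 60.5 ± 11.6 and 8.11 ± 0.258 times.

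Chrm2 and Adora1, the receptors that slow the heart, rose together with age, but their KO differences were not alike. Chrm2 (ENSMUSG00000045613, chromosome 6, 36388084 to 36528414, plus strand) read 46.6 and 46.4 CPM in the 1w controls, 163 and 167 CPM in the 3w controls, 25.3 and 27.4 CPM in the 1w KO libraries and 130 and 124 CPM in the 3w KO libraries. At each age both KO libraries lay below both control libraries. In Chrm2, KO differed from control by a log2 fold change of -0.82 ± 0.048 at 1w, which is 1.77-fold lower (edgeR adjusted p = 1.4e-22). At 3w it differed by -0.38 ± 0.038, 1.30-fold lower (edgeR adjusted p = 2.4e-13). The gap was smaller at 3w by 0.44 ± 0.061 (edgeR adjusted p = 2.2e-08), and the mean over both ages was -0.60 ± 0.031. Library totals in place of TMM left the 3w value at -0.13 (edgeR adjusted p = 0.0051). From 1w to 3w Chrm2 rose 3.56-fold in control (log2 1.83 ± 0.042, edgeR adjusted p = 3.8e-45) and 4.83-fold in KO (log2 2.27 ± 0.044, edgeR adjusted p = 9.8e-49).

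Adora1 (ENSMUSG00000042429, chromosome 1, 134199223 to 134235431, minus strand) read 9.91 and 10.5 CPM in the 1w controls, 54.3 and 58.5 CPM in the 3w controls, 12.4 and 13.0 CPM in the 1w KO libraries and 50.03 and 55.4 CPM in the 3w KO libraries. KO libraries were the higher ones at 1w and overlapped with control at 3w. Adora1 was higher in KO by 0.30 ± 0.081 at 1w (edgeR adjusted p = 0.0017). At 3w the difference of -0.09 ± 0.051 was not called (95% interval -0.19 to 0.01, edgeR adjusted p = 0.13). It was called without replicate 1 of control at 3w (-0.15, edgeR adjusted p = 0.033) or without replicate 2 of KO at 3w (-0.18, edgeR adjusted p = 0.018), and with library totals in place of TMM it was called higher, at 0.16. The change of the KO difference between the ages was -0.39 ± 0.096 (edgeR adjusted p = 0.00066), or -0.25 with library totals (edgeR adjusted p = 0.044). The mean KO difference over both ages, 0.10 ± 0.048, was not called (edgeR adjusted p = 0.060), but with library totals it was, at 0.28. Adora1 rose 5.47-fold with age in control (log2 2.45 ± 0.066, edgeR adjusted p = 1.2e-40) and 4.16-fold in KO (log2 2.06 ± 0.061, edgeR adjusted p = 3.7e-38). Of the exon bases of Adora1 20.1% also lie in exons of Mybph on the opposite strand. With the strand setting not given, reads of these shared bases cannot be told apart. Mybph itself counted 0 to 0.418 CPM, and its part in the Adora1 counts was not tested. Chrm2 per kb of exon was 4.35 ± 0.209 times Adora1 in control at 1w and 1.98 ± 0.0365 times in KO at 1w, and 2.81 ± 0.100 and 2.31 ± 0.243 times at 3w.

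Their potassium channel did not follow one pattern. Kcnj3 read 10.7 and 9.35 CPM in the 1w controls, 15.97 and 15.5 CPM in the 1w KO libraries, 59.2 and 62.1 CPM in the 3w controls and 31.2 and 32.7 CPM in the 3w KO libraries. It was thus higher in KO at 1w (0.67 ± 0.077, edgeR adjusted p = 7.7e-11) and lower in KO at 3w (-0.92 ± 0.053, edgeR adjusted p = 4.1e-23). Kcnj5 stood at 67.2 to 81.1 CPM in control and 54.7 to 85.9 CPM in KO, and was lower in KO at 1w (-0.29 ± 0.042, edgeR adjusted p = 3.4e-08) and slightly higher at 3w (0.10 ± 0.040, edgeR adjusted p = 0.027). Kcnj3 shares 31.1% of its exon bases with a gene on the opposite strand, and it is also one of the atrial markers. The 13 atrial and conduction markers summed to 86.5 and 90.9 CPM in the 1w controls, 640 and 646 CPM in the 1w KO libraries, 253 and 252 CPM in the 3w controls and 657 and 642 CPM in the 3w KO libraries. Single markers moved in different directions: Bmp10 at 1w read 0.126 and 0.109 CPM in the controls and 179.5 and 179.9 CPM in KO, but at 3w 19.7 and 20.8 CPM in the controls and 0.0353 and 0.105 CPM in KO. At 3w Nppa, at 590 and 577 CPM in KO against 104 and 101 CPM in control, made up most of the sum in KO. Of the 11 markers tested, 9 were called higher and 0 lower in KO at 1w. At 3w 4 were called higher (Nppa, Nr2f2, Tbx3 and Stard10) and 6 lower. Chrm2 and Kcnj3 are known to be richer in atrial than in ventricular muscle, and the part of atrial cells in these receptor values was not tested.

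**Figure D2:**
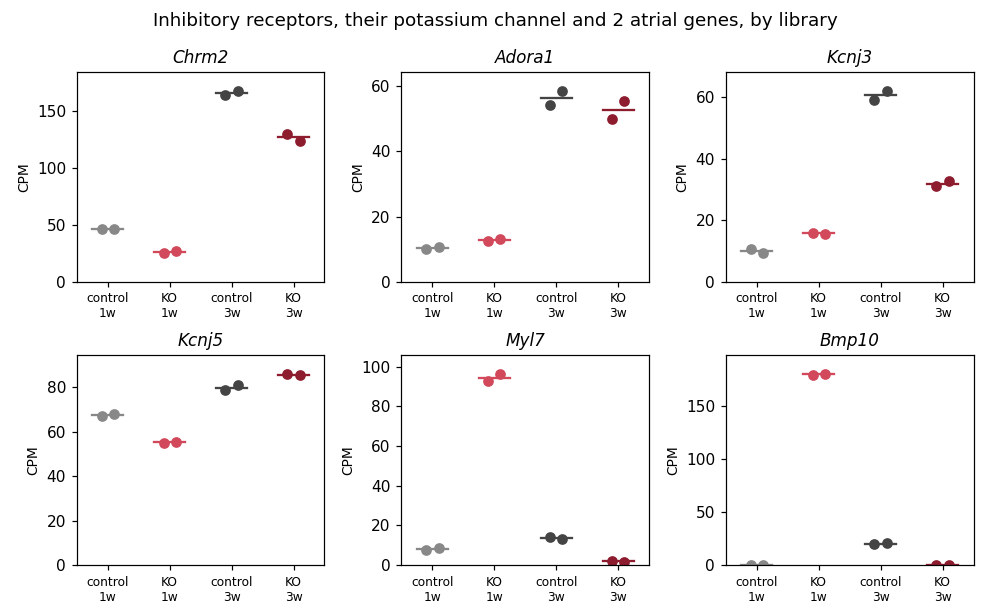
Level in each library, in CPM on axes that start at 0, of the inhibitory receptors, the genes of their potassium channel and the atrial genes Myl7 and Bmp10. Points are libraries and lines group means. Chrm2 is lower in KO at both ages, while Kcnj3, Myl7 and Bmp10 are higher in KO at 1w and lower in KO at 3w. Of the 11 atrial and conduction markers tested, 4 were called higher and 6 lower in KO at 3w.

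The cyclases Adcy5 and Adcy6 make most of the cAMP in heart muscle cells. Adcy5 (ENSMUSG00000022840, chromosome 16, 35154877 to 35305738, plus strand) read 119 and 122 CPM in the 1w controls, 165 and 159.9 CPM in the 3w controls, 98.96 and 97.7 CPM in the 1w KO libraries and 142 and 137 CPM in the 3w KO libraries. KO libraries lay below control libraries at each age. The KO difference was -0.29 ± 0.036 at 1w (edgeR adjusted p = 5.4e-10) and -0.22 ± 0.035 at 3w (edgeR adjusted p = 2.5e-07). These did not differ from each other by the test of the change (0.07, 95% interval -0.03 to 0.17, edgeR adjusted p = 0.29), and with library totals in place of TMM they became -0.19 and 0.03 and the change was called at 0.22. With age Adcy5 rose by 0.43 ± 0.036 in control and 0.50 ± 0.036 in KO, and with library totals the control value was -0.15 and the KO value 0.07, not called.

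Adcy6 (ENSMUSG00000022994, chromosome 15, 98589973 to 98610076, minus strand) read 116 and 119 CPM in the 1w controls, 275 and 279.8 CPM in the 3w controls, 109.6 and 108 CPM in the 1w KO libraries and 166 and 166 CPM in the 3w KO libraries. The KO libraries were little lower at 1w and far lower at 3w. At 1w KO differed from control in Adcy6 by -0.12 ± 0.035 (edgeR adjusted p = 0.0053). That call was lost without replicate 2 of control at 1w (edgeR adjusted p = 0.068) or replicate 2 of KO at 1w (0.079). It was also lost with no filter on low counts (0.059) and with library totals in place of TMM (-0.02, edgeR adjusted p = 0.76). At 3w the difference was -0.74 ± 0.033, 1.67-fold lower (edgeR adjusted p = 1.7e-28) and -0.49 with library totals, and the change between the ages was -0.63 ± 0.048 (edgeR adjusted p = 3.7e-17). The postnatal rise was 2.35-fold in control (log2 1.23 ± 0.034) and 1.52-fold in KO (log2 0.61 ± 0.034). Per kb of exon the ratio of Adcy6 to Adcy5 went from 1.04 ± 0.0032 (SD, n = 2) to 1.81 ± 0.061 in control and from 1.17 ± 0.0013 to 1.26 ± 0.034 in KO. Of the exon bases of Adcy6, 8.92% also lie in an antisense gene.

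Grk5 (ENSMUSG00000003228, chromosome 19, 60889749 to 61095968, plus strand), a kinase that phosphorylates active receptors, was the one of the 9 genes that was called higher in KO at both ages. It was low throughout, with 48 and 77 counts in the 1w controls, 66 and 55 in the 3w controls, 164 and 130 in the 1w KO libraries and 94 and 76 in the 3w KO libraries. In CPM the control libraries lay between 1.57 and 2.10 and the KO libraries between 2.65 and 3.68, so genotypes did not overlap. The KO difference was 0.79 ± 0.17 at 1w, 1.73-fold (edgeR adjusted p = 0.00010), and 0.79 ± 0.19 at 3w, 1.72-fold (edgeR adjusted p = 0.00031). With age Grk5 was not called, at -0.26 ± 0.20 in control and -0.26 ± 0.16 in KO, but with library totals in place of TMM it was called lower in both (-0.83 and -0.69). Its mean over both genotypes, -0.26 ± 0.13, missed the threshold (edgeR adjusted p = 0.060) and passed it without replicate 2 of control at 3w (0.044) or replicate 1 of KO at 3w (0.035). The fibroblast, macrophage and smooth muscle sums given above were also higher in KO at both ages, and their part in the Grk5 values was not tested.

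Prkar1a (ENSMUSG00000020612, chromosome 11, 109649405 to 109669656, plus strand) encodes the type I regulatory subunit that holds protein kinase A inactive until cAMP binds, and it was the one of the 9 genes that fell with age. It read 667 and 696 CPM in the 1w controls, 348 and 358 CPM in the 3w controls, 514 and 505 CPM in the 1w KO libraries and 393 and 394 CPM in the 3w KO libraries. The 4 groups did not overlap, and the KO values lay between the control values of the 2 ages. The fall with age was 1.93-fold in control (log2 -0.95 ± 0.030, edgeR adjusted p = 4.8e-37) and 1.29-fold in KO (log2 -0.37 ± 0.030, edgeR adjusted p = 4.1e-17). KO was lower by -0.42 ± 0.030 at 1w (edgeR adjusted p = 1.0e-18) and higher by 0.16 ± 0.031 at 3w (edgeR adjusted p = 1.7e-05), or by 0.41 at 3w with library totals in place of TMM. The change between the ages was 0.58 ± 0.043 (edgeR adjusted p = 8.0e-18). The mean over both ages was -0.13 ± 0.021 (edgeR adjusted p = 3.8e-07), and 0.04 with library totals. Per kb of exon Prkar1a was 1.55 ± 0.050 (SD, n = 2) times the catalytic subunit gene Prkaca in control at 1w and 0.649 ± 0.030 times at 3w, and 1.31 ± 0.030 and 0.863 ± 0.012 times in KO. Its share of the summed levels per kb of the protein kinase A regulatory subunits was 91.5 ± 0.222% in the 1w controls and 82.4 ± 0.292% in the 3w controls, against 89.5 ± 0.209% and 84.1 ± 0.105% in KO.

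Counted over the 9 genes, KO against control at 1w called 7, of which Grk5 and Adora1 were higher and Adra1b, Adcy5, Adcy6, Prkar1a and Chrm2 lower. Of all genes tested at 1w, 43.0% were called, 23.0% higher and 20.0% lower. The median log2 fold change of the 9 genes was -0.23, beside 0.02 over all genes tested. KO against control at 3w called 5 of the 9, of which Grk5 and Prkar1a were higher and Adcy5, Adcy6 and Chrm2 lower. Here 49.2% of all genes were called, 24.4% higher and 24.8% lower, so the members' share was near the background. The median was -0.09, beside 0.01 over all genes. Over both ages 7 of the 9 were called, Grk5 higher and 6 lower (of which Adrb1, Adra1b and Prkar1a were not called with library totals in place of TMM), where 52.8% of all genes were called, 27.5% higher and 25.3% lower. Of the 9 genes 4 were called in the same direction at both ages (Grk5 higher, Chrm2, Adcy5 and Adcy6 lower) and Prkar1a in opposite directions, where 20.7% of all genes were called in the same direction at both ages. The change of the KO difference from 1w to 3w was called for 5 of the 9, toward higher in Adra1b, Prkar1a and Chrm2 and toward lower in Adcy6 and Adora1, beside 35.6% of all genes, 17.6% higher and 17.9% lower. With library totals in place of TMM, the share of higher among called genes moved from 53.5 to 73.7% at 1w, from 49.6 to 84.1% at 3w, from 52.1 to 83.8% over both ages and from 49.6 to 73.9% for the change between the ages. The median of all genes then moved by 0.10 at 1w, 0.25 at 3w and 0.17 over both ages on the log2 scale.

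**Figure D3:**
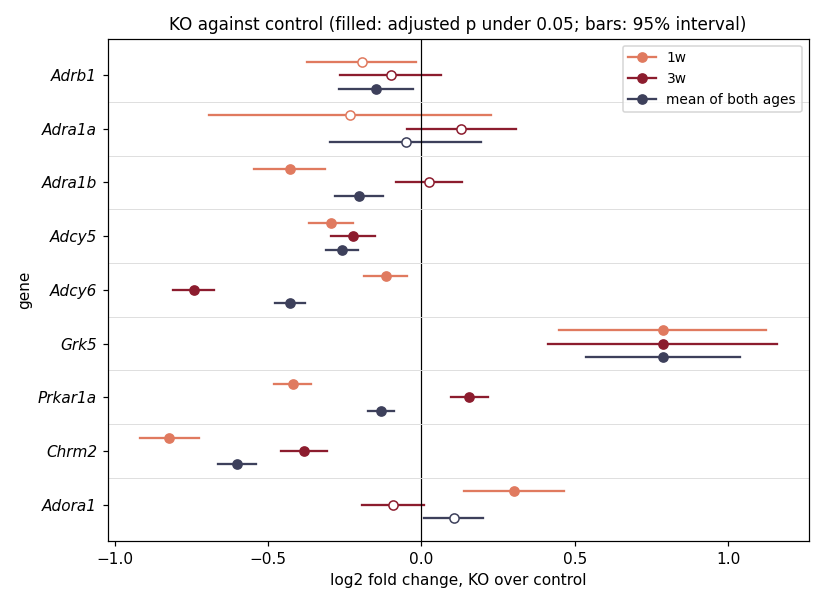
Log2 fold change of KO over control for the 9 genes at 1w, at 3w and as the mean of both ages. Bars are 95% intervals, filled points passed an adjusted p of 0.05. Grk5 lies at 0.79 at both ages and Chrm2, Adcy5 and Adcy6 lie below 0 at both ages, while Prkar1a lies on opposite sides of 0; with library totals in place of TMM, Adcy5, Adrb1 and Adora1 at 3w, Adrb1 and Prkar1a in the mean, and the uncalled Adra1a in the mean, lie on the other side of 0.

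With age, 8 of the 9 genes were called in control and 8 in KO, the same 7 higher and Prkar1a lower in each. In control 70.8% of all genes were called, 34.9% higher and 36.0% lower, and in KO 67.9%, 33.2% higher and 34.6% lower. The median of the 9 genes was 0.44 in control and 0.61 in KO, beside -0.03 and -0.02 over all genes tested. Over both genotypes 8 of the 9 were called, 7 higher and 1 lower (of which Adrb1, Adcy5 and Adra1b, the last at 0.06 with an edgeR adjusted p of 0.20, were not called with library totals in place of TMM), where 76.8% of all genes were called, 37.4% higher and 39.4% lower. The scaling bears on these directions. TMM factors were 0.759 to 0.782 in control at 3w and 1.14 to 1.23 at 1w, and library totals in place of TMM moved the median of all genes by -0.58 in control, -0.43 in KO and -0.50 over both. The share of higher among called genes then moved from 49.2 to 16.6% in control, from 49.0 to 18.5% in KO and from 48.7 to 17.4% over both. On that scale Adra1a, Adcy6, Chrm2 and Adora1 remained called higher and Prkar1a called lower in both genotypes, with Adcy6 at 0.66 in control and 0.18 in KO and Prkar1a at -1.53 and -0.80, whereas Adrb1, Adra1b and Adcy5 were below 0 in control, and in KO Adrb1 (0.10) and Adcy5 (0.07) were not called.

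**Figure D4:**
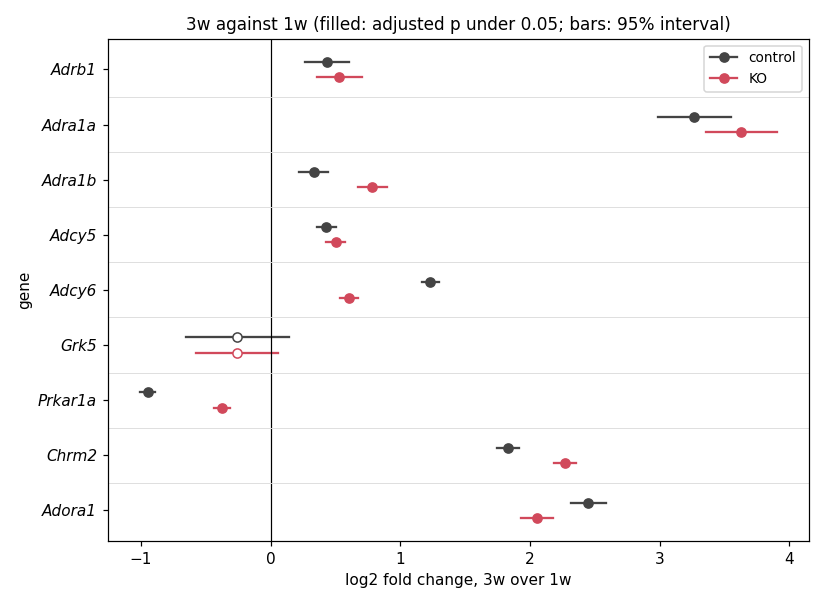
Log2 fold change of 3w over 1w for the 9 genes in control and in KO, with 95% intervals as bars and filled points where the adjusted p passed 0.05. Adra1a lies at 3.27 and 3.63, Adora1 and Chrm2 near 2, Prkar1a below 0 and Grk5 uncalled; with library totals in place of TMM, Adrb1, Adra1b and Adcy5 in control lie below 0.

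The rest of the pathway was read from 99 other genes in 8 lists, of which 88 passed the filter. At 1w 23 of the 88 were higher and 32 lower in KO, and at 3w 35 were higher and 20 lower. Of all 14665 genes tested, 23.0% were higher and 20.0% lower at 1w, and 24.4% and 24.8% at 3w. In the mean over both ages these shares were 27.5% and 25.3%. With library totals in place of TMM, 29 of the 88 were higher and 25 lower at 1w, and 58 and 11 at 3w. Of all genes, 4787 were then higher and 1710 lower at 1w, and 6908 and 1304 at 3w. Genes in the list of effectors and protein kinase A substrates were mostly lower in KO with TMM scaling. The list also holds Kcnj3 and Kcnj5, the genes of the potassium channel of the inhibitory receptors. Of the list's 13 tested genes, 1 was higher (Kcnj3) and 10 lower at 1w, 1 was higher (Kcnj5) and 8 lower at 3w, and 11 were lower and 0 higher in the mean over both ages, where the list's median was -0.33 beside 0.02 over all genes. With library totals in place of TMM, 2 were higher and 9 lower at 1w, 5 higher and 5 lower at 3w, and 3 higher and 8 lower in the mean, at a median of -0.16. Ryr2, Tnni3 and Pln in this list are also ventricular markers. The ventricular markers summed to 76182 and 80249 CPM in control at 3w against 62490 and 61763 CPM in KO. Myh6 made up much of that sum (41039 against 31870 CPM). Of the 8 ventricular markers tested, 7 were called lower in KO at 3w and Myl2 was not called. At 1w 6 were called lower and Myh6 higher, with sums of 39386 and 40208 CPM in control and 37507 and 37209 CPM in KO. The part of these markers in the list's counts was not tested. In the list of effectors Rrad, a small GTP-binding protein that restrains the L-type calcium channel, was 1.92-fold lower in KO at 1w (140 against 73.3 CPM). Cacnb2, a subunit of that channel, was 1.91-fold lower at 1w (83.6 against 43.7 CPM). The subunits, inhibitors and anchoring proteins of protein kinase A were 1 higher and 9 lower of 15 at 1w, and 6 higher and 4 lower at 3w, where library totals in place of TMM gave 1 higher and 7 lower and then 9 higher and 2 lower. Prkaca, the main catalytic subunit, was lower in KO at both ages, by -0.18 at 1w and -0.26 at 3w, but with library totals it was not called at either age (-0.08 and -0.01). Akap12, an anchoring protein, was 1.97-fold higher in KO at 3w.

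Among receptor kinases, arrestins and RGS proteins, which end receptor and G protein signals, 6 of 12 were higher and 2 lower in KO at 1w. At 3w 6 were higher and 1 lower, and with library totals the counts were 6 and 1 and then 8 and 1. Beside the counts of each list here, 23.0% of all genes were higher and 20.0% lower at 1w, and 24.4% and 24.8% at 3w. Rgs2, which speeds the shut-off of Gq, was 2.19-fold lower at 1w, from 73.0 to 33.3 CPM. Arrb2, an arrestin, was 2.06-fold higher at 1w, and Rgs4 was 4.02-fold higher at 3w, from 1.74 to 6.95 CPM. Grk2, the other main receptor kinase of the heart, was higher by 0.16 at 1w and 0.12 at 3w. Of the 5 tested cyclases outside the 9 genes, Adcy4 and Adcy7 were higher in KO at both ages and none was lower. Adcy7 went from 3.56 to 12.0 CPM at 1w and from 2.70 to 7.07 CPM at 3w. Among G protein subunits 4 of 14 were higher and 2 lower at 1w, and 7 were higher and 1 lower at 3w, and with library totals 7 and 1 and then 12 and 0. Gnao1, the alpha subunit of Go, went from 5.81 to 14.9 CPM at 1w, and Gnb4, a beta subunit, from 4.01 to 7.999 CPM at 3w. Gnai2, the main inhibitory alpha subunit, was not called at 1w (it was with library totals, at 0.17) and higher by 0.36 at 3w. Gnas, the stimulatory alpha subunit, was listed at only 3.85 to 6.97 CPM, was not called in KO at either age (with library totals it was at 3w, at 0.56), and shares 22.0% of its exon bases with other genes.

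Phosphodiesterases and other cAMP-binding proteins went both ways in KO, with 5 higher and 6 lower of 16 at 1w and 9 higher and 4 lower at 3w, and with library totals 6 and 4 and then 12 and 2. Pde7a was 2.54-fold lower at 3w, from 28.1 to 11.1 CPM, and Pde3b 2.02-fold higher, from 4.24 to 8.56 CPM. The Gq and phospholipase C list had 2 higher and 3 lower of 8 at 1w and 2 higher and 2 lower at 3w. With library totals its counts were 3 and 3 and then 6 and 1. With TMM, 23.0% of all genes were higher and 20.0% lower at 1w, and 24.4% and 24.8% at 3w. The Gq counts at 3w lay near those shares. The summed levels of fibroblast, smooth muscle and macrophage markers were higher in KO as given above, with single markers lower, and the part of those cells in the list counts was not tested.

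With age, 24 of the 88 other pathway genes rose and 48 fell in control, and 32 rose and 40 fell in KO. Of all 14665 genes tested, 34.9% rose and 36.0% fell in control, and 33.2% and 34.6% in KO. With library totals in place of TMM, the counts among the 88 were 11 and 70 and then 14 and 61. Of all genes, 1919 were then higher and 9644 lower in control, and 2042 and 8968 in KO. G protein subunits fell as a list, with 11 of 14 lower and 1 higher (Gnao1) in control and 9 lower and 1 higher (Gnao1) in KO, at a median of -1.02 and -0.42, and with library totals 13 were lower and 1 higher in control and 12 lower and 0 higher in KO. Gnai2 went from 220 and 221 CPM to 108 and 106 CPM in control and from 236 and 227 CPM to 139 and 137 CPM in KO. The cyclases outside the 9 genes fell in 4 of 5 in control and 3 of 5 in KO, with Adcy9 the one that rose, and Adcy4 went from 25.8 to 8.91 CPM in KO. Receptor kinases, arrestins and RGS proteins fell in 8 of 12 in control and 9 of 12 in KO. Of 13 effectors 7 rose and 5 fell in control and 8 rose and 5 fell in KO, and with library totals 4 and 6 were higher and 8 and 5 lower. Kcnj3 rose 6.10-fold in control. Akap12 showed the largest fall among the named genes, 7.10-fold in control and 4.56-fold in KO. Rapgef3, a cAMP-activated exchange factor, fell 3.42-fold in control and 2.38-fold in KO, and Crem, a cAMP-responsive transcription factor, 3.46-fold in control. In KO Adora2a fell 2.92-fold, Arrb2 2.86-fold and Gnai1 2.30-fold. The endothelial and fibroblast sums also fell between 1w and 3w in both genotypes, and their part in these values was not tested.

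**Figure D5:**
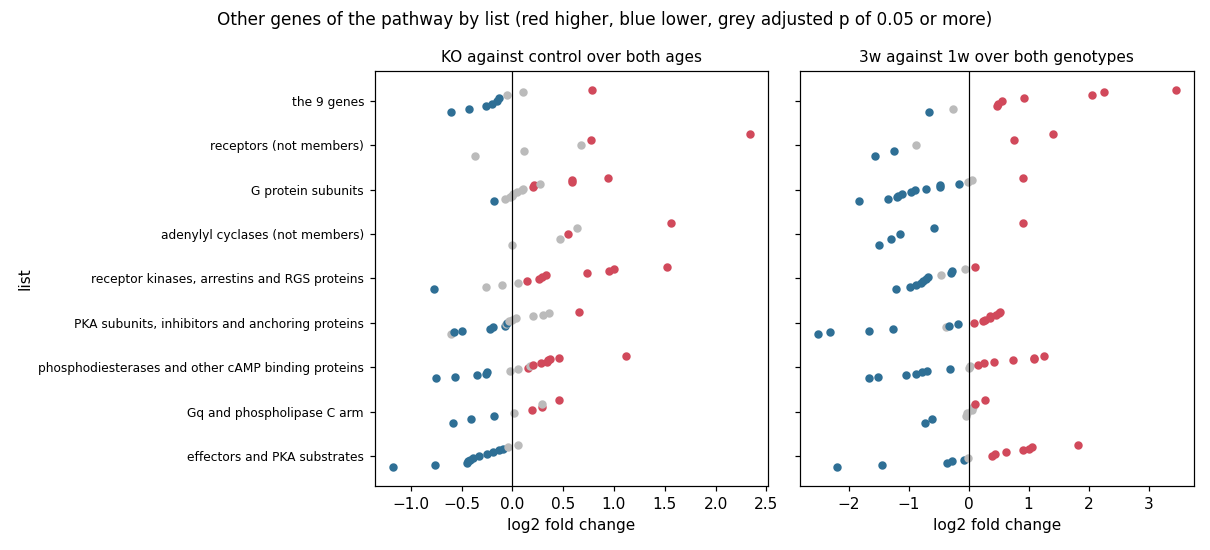
Log2 fold changes of the 9 genes and of the 88 other tested pathway genes by list, KO over control as the mean of both ages (left) and 3w over 1w as the mean of both genotypes (right). Each point is a gene, red where called higher, blue where called lower and grey where not called. No gene in the list of effectors and protein kinase A substrates is red on the left. On the right 11 of 14 G protein subunits are blue. With library totals in place of TMM, 3 genes of the effector list were higher and 8 lower, and 13 of the G protein subunits were lower. Of all genes tested, 27.5% were called higher in the left comparison and 39.4% lower in the right one.

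The genes whose pattern over the 8 libraries was most like that of each of the 9 were found by the smallest root mean square difference in centred log2 CPM, among genes with a mean of at least 10 CPM. Adcy6 was closest to Mtr (0.033) and Slc25a4 (0.042), against a spread of its own of 0.53. Chrm2 was closest to Mettl7a1 (0.090) and Fbxo32 (0.095), with an own spread of 1.07, and Adora1 to Kcnd3 (0.10) and Cp (0.11), with an own spread of 1.14. Prkar1a lay closest to Zfp397 (0.059) and Cbx5 (0.061), Adra1b to Esrrg (0.059) and Cops4 (0.065), Adrb1 to Acads (0.038) and Bcl2l13 (0.038), and Adcy5 to Fundc2 (0.030) and Blcap (0.036). For the least abundant members the nearest genes were farther off. Grk5 was 0.13 from Ckb and 0.15 from Ssbp4, and Adra1a 0.24 from Zbtb16 and 0.29 from Sh3rf2. Each match is a description over 8 libraries in 4 groups, and says nothing of shared function.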

How the data were processed

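The authors deposited gene-level counts for 8 libraries, 2 in each of 4 groups. FastQC, MultiQC, HISAT2, featureCounts and DESeq2, with build mm10, are named per the submitters' processing notes. For versions, annotation and strand, nothing was given in the sources used here. Libraries were SMARTrHT with NEXTERA XT, per the labels' protocols. All values in the table were whole numbers.

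What follows was computed from those counts. Symbols and positions came from GENCODE M21, which named 54723 of 54752 IDs. Genes were kept by edgeR's filterByExpr (minimum count 10, minimum total 15), which left 14665. TMM factors ran from 0.759 to 1.23. Comparisons used edgeR's robust quasi-likelihood F-test in 1 fit of the 4 group means, with 4 residual degrees of freedom. The coefficient of variation common to all genes was 3.03%. To the 4 residual degrees of freedom the test adds prior ones estimated over all genes. Narrow intervals and small p-values from 2 libraries a group thus rest on that shared spread. The Benjamini-Hochberg adjustment ran over all 14665 tested genes, and a call means an adjusted p under 0.05. Standard errors were computed back from each F value, and intervals are at 95%. Similarity was measured on log2 CPM (prior count 0.5). The procedure was tested on simulated data. Alternatives were DESeq2, other scalings, no filter, a fit of the compared groups alone, an additive fit, a replicate block, longest transcript lengths and leaving out each library. Library totals without TMM were added after the data were seen.

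Averaged over all tested genes, with library totals, replicates of a group differed by more than sampling noise (chi-square per gene 1.45 to 6.40). Genes with very high counts can set such a mean, so it does not speak for each gene. Members, lists and motifs were chosen with earlier results of these data known. All 9 members are named in every comparison. Of the other pathway genes, 8 were set to be always named (Gnas, Gnai2, Grk2, Prkaca, Pln, Kcnj3, Kcnj5 and 1 that is not reported here), and for each comparison between 2 groups the 6 called genes with the largest absolute log2 fold change and a mean CPM of at least 5. Genes named only to resolve a small count were chosen after their values were seen. Promoter sequences are RefSeq's for GRCm38.p6, and protein sequences were not used here. Software was R 4.3.3, edgeR 4.0.16, DESeq2 1.42.0 and limma 3.58.1.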

Additional observations from a re-analysis of the deposited data

Results flagged for a closer look

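The difference between KO and control changed from 1w to 3w in 5 of the 9 genes, by the edgeR test of the change itself, in a comparison where 35.6% of all genes were called. The log2 fold change of KO over control at 3w was above that at 1w by 0.45 for Adra1b, 0.58 for Prkar1a and 0.44 for Chrm2. It was below that at 1w, by a change of -0.63, for Adcy6 and, by -0.39, for Adora1. Since Y-linked transcripts were present in KO at 1w and control at 3w and near absent in the other groups, these changes and a difference that goes with those transcripts cannot be told apart. The same holds for the labelled injection day, which differed between the ages. The KO difference of Carm1 itself also changed, by -0.34, and its part in these changes was not tested.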

How the results depend on the processing

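Leaving out each of the 8 libraries in turn, the number of the 9 genes called ranged from 6 to 8 for KO at 1w, 5 to 6 for KO at 3w, 8 to 8 for age in control and in KO, 6 to 8 for KO over both ages, 8 to 9 for age over both genotypes and 5 to 5 for the change of the KO difference. An additive fit called 4 of the 9 for KO over both ages in place of 7 (Adrb1, Adra1b and Prkar1a were lost) and 4506 in place of 7746 genes in all, and it leaves the change between ages in the residual. DESeq2 called 4043 in place of 6305 genes for KO at 1w and 3351 in place of 5215 for the change. Values that crossed 0 when 1 library was left out belonged to Adra1a for KO at 1w (-0.52 to 0.085) and over both ages (-0.20 to 0.11), to Adra1b for KO at 3w (-0.038 to 0.071) and to the change in Grk5 (-0.17 to 0.16). Adra1a over both ages was also 0.019 in the additive fit, and none of these values was called. Library totals in place of TMM, added after the data were seen, gave for KO at 3w 0.026 for Adcy5, 0.16 for Adora1 and 0.15 for Adrb1, and for KO over both ages 0.12 for Adra1a, 0.026 for Adrb1 and 0.043 for Prkar1a. On the same scale age in control was -0.15 for Adcy5, -0.24 for Adra1b and -0.14 for Adrb1, age over both genotypes -0.036 for Adcy5 and -0.018 for Adrb1, and the change in Grk5 0.15. The cause was not tested. With the replicate number as a replicate block, 8 of the 9 were called for KO over both ages (Adora1 added, 0.11, adjusted p = 0.041), the change in Grk5 was 0.0077, and no other call of the 9 changed. Same-numbered libraries did not deviate together (correlations -0.022 to 0.0083). With 2 libraries a group, such values cannot exclude that the numbers pair libraries. At each age the same number carried the same labelled injection day in both viruses. Under all settings but library totals, 842 results kept their direction and call, and 11 reversed, 9 gained and 11 lost a call. With library totals 39 kept both, 12 reversed, and with the direction kept 7 gained and 5 lost a call. The 5 were Adcy6 for KO at 1w, Adra1b for KO over both ages and for age over both genotypes, and Adrb1 and Adcy5 for age in KO. Among the 12 reversed, calls were also lost for Adcy5 in KO at 3w, and for Adrb1 and Prkar1a in KO over both ages. The same held for Adrb1 in age in control, and for Adcy5 and Adrb1 in age over both genotypes. Adcy5 and Adra1b for age in control were called in the opposite direction, and Adora1 for KO at 3w gained a call. Adra1a at 1w and Grk5 rest on 24 to 164 counts a library, which limits what their intervals can show.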

Other observations

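Of the 12 other receptors listed, 7 did not pass the filter on low counts. Adra2b had 6 to 23 counts per group of 2 libraries, Adrb3 1 to 8, Adra2c 2 to 8, Adra2a 0 to 5, Chrm4 0 to 5 and Chrm1 0 to 2. Adora3 was listed at 0 in all 8 libraries, as were Pln, which encodes the protein kinase A target phospholamban, the G protein subunit gene Gnb2 and the phosphodiesterase gene Pde2a. Of the exon bases of Pln 64.7% are shared with other annotated genes, of those of Pde2a 64.3%, of Adora3 20.9% and of Gnb2 3.94%. Why these genes were listed at 0 was not tested.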
